A study of Homo sapiens with 6 samples.

Results

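The MITF family of transcription factors and the regulators that stand beside it in the melanocyte lineage were followed in melanoma cells carrying an HDAC8 expression vector. The set held 10 genes of the 60504 in the table: MITF, TFEB, TFE3 and TFEC (the MITF family), PAX3 and FOXD3 (neural crest and lineage factors), TFAP2A, TFAP2B and TFAP2C (the AP-2 family) and USF1. They were matched by gene symbol, and each symbol was found once. The cells were WM164, a human melanoma line with BRAF V600E, and the question of the RNA-seq was which genes change when HDAC8, a class I histone deacetylase, is introduced. The EV group (3 libraries) carried an empty expression vector and the HDAC8 group (3 libraries) an HDAC8 expression vector. Both groups had been transfected with plasmid and kept in hygromycin, so selection with this drug was common to them. All libraries came from 1 cell line, and the labels number the replicates but do not say whether they were separate cultures, so p values measure the spread between these libraries, which may be technical.

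MITF is a basic helix-loop-helix leucine zipper protein that binds E-box DNA as a dimer and switches on the enzymes and structural proteins of the pigment granule, the melanosome. TFEB, TFE3 and TFEC share its DNA-binding domain and can dimerise with it. TFEB and TFE3 are best known for driving genes of lysosomes and autophagy (the CLEAR network) and are held in the cytoplasm by mTORC1 through the Rag GTPases. In melanocytes, PAX3, SOX10, CREB and LEF1 act on the MITF promoter, FOXD3 holds neural crest cells back from the pigment fate, AP-2 factors bind many of the enhancers that MITF binds, and USF1 recognises the same E-box without belonging to the family.

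Total counts per library ran from 34741083 to 42041462 and overlapped between the groups. Mitochondrially encoded transcripts made up 9.66% to 12.8% of the EV counts and 4.46% to 7.94% of the HDAC8 counts. HDAC8 itself had normalized counts of 384, 404 and 479 in EV and of 485, 446 and 474 in HDAC8 (log2 fold change 0.15, SE 0.28, adjusted p by DESeq2 = 0.856), so this gene's count did not separate the groups, and HDAC8 stands below for the label of a library. All 8 melanocyte markers had counts, with TYRP1 the lowest (means of 39.1 and 5.81 normalized counts). Of the 8, 5 fell (MLANA, TYR, DCT, PMEL and S100B), which is 62.5% called lower against 5.44% of all genes. The S100B call was lost without EV 1, EV 2, EV 3, HDAC8 2 or HDAC8 3, by limma-voom and with a replicate block. DCN of the fibroblast list, KRT1 of the keratinocyte list and CDH5 of the endothelial list were at 0 in every library. The summed leukocyte list lay between 0 and 14.7 normalized counts in EV and between 50.1 and 112 in HDAC8. Most of the latter was CD3E, at 0 in EV and at 78.7, 91.1 and 50.1 in HDAC8, while the pan-leukocyte gene PTPRC had no count above 2.57. The fibroblast list summed to 2489 to 2877 in EV and to 1461 to 2423 in HDAC8, most of it LUM. Its member PDGFRA rose (means of 140 and 313, adjusted p by DESeq2 = 0.0377). This call was lost without EV 1, EV 2, EV 3, HDAC8 1 or HDAC8 3, by edgeR (adjusted p = 0.0597) and by limma-voom (0.0769). It was lost with upper-quartile size factors and a replicate block too. The keratinocyte and endothelial lists stayed under 304 in each library. The part of the mitochondrial share and of these markers in the results below was not tested.

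Of the 10 members, 9 had a total of at least 10 counts and were tested, and 8 received an adjusted p from DESeq2. Calls required a Benjamini-Hochberg adjusted p under 0.05 together with a log2 fold change (HDAC8 against EV) of 0.58 or more in either direction. FOXD3 and TFAP2C fell, 0 members rose and 6 were not called. Across all genes with an adjusted p, 11% were called, and 5.57% of all were called higher and 5.44% lower. With these shares, 2 of 8 is a count too small to set apart from this background. At an unadjusted p under 0.05 the count of higher members was likewise 0, and it was 0 by edgeR and by limma-voom. The EV and HDAC8 values did not overlap for 4 of the 9 tested members (TFEB, PAX3, FOXD3 and TFAP2C), against 24% of all tested genes. The median log2 fold change of the 9 tested members was -0.20, and that of all genes tested was -0.00012. These are bulk libraries, in which a lower count in every cell and fewer cells with the transcript cannot be told apart.

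**Figure D1:**
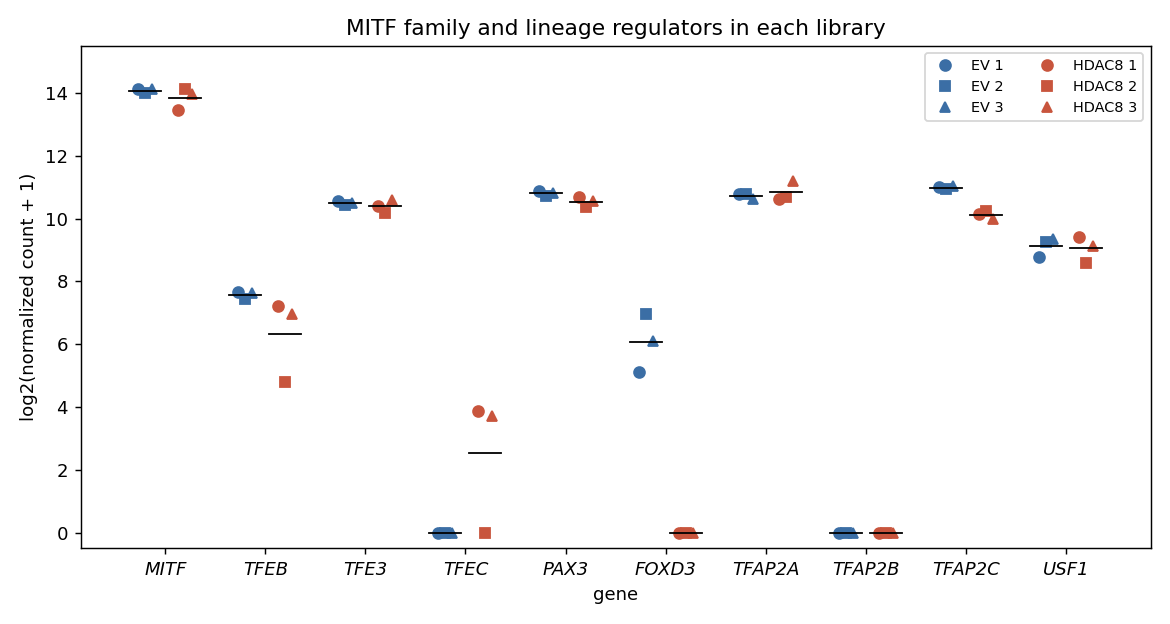
Normalized count of each of the 10 genes in the 6 libraries, as log2(normalized count + 1) on the vertical axis, with EV in blue, HDAC8 in red, the shape giving the replicate and a black bar at the mean of the plotted values. TFAP2C and FOXD3 sit lower in the 3 HDAC8 libraries than in the 3 EV libraries, MITF overlaps, TFEB is spread by HDAC8 2, and TFAP2B is at 0 throughout.

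MITF, the master regulator of the lineage, was by far the most abundant member and was not called. MITF (ENSG00000187098, GRCh38 chromosome 3, 69739456 to 69968336, plus strand) had normalized counts of 17824, 16257 and 17935 in EV and of 11314, 17920 and 16096 in HDAC8. HDAC8 1 stood below the other libraries, and HDAC8 2 was within the EV range. The means were 17339 ± 939 (SD, n = 3) and 15110 ± 3412 (SD, n = 3), with a log2 fold change of -0.20 (SE 0.17, 95% interval -0.52 to 0.13, adjusted p by DESeq2 = 0.544). In this fit the interval lies inside the fold change minimum on both sides. Without HDAC8 1 the log2 fold change was -0.03, and without HDAC8 2 it was -0.33. These were the ends of its range over the 14 alternatives, none of which called MITF. The counts are per gene, so the long forms of MITF and the melanocyte form, which starts further downstream, were not separated.

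RefSeq (GRCh38.p14) gave windows from 250 bases before to 50 bases after the start for 9 of the 10 members, all but TFAP2C, in 16 windows. MITF had 3, and the third is the start of the melanocyte form, where cAMP signalling acts through CREB. Its 250 upstream bases, shown because this is the promoter that PAX3, SOX10, CREB and LEF1 are known to act on, lie at chr3:69936342-69936591 on the plus strand. Capitals mark the cAMP response element TGACGTCA, at positions -152 to -145 from the start.
MITF, melanocyte start: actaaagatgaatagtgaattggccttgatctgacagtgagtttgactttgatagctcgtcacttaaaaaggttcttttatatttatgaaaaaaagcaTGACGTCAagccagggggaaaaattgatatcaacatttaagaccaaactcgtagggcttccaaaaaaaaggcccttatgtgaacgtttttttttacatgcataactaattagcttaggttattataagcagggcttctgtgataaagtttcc
All 5 motifs were searched on both strands. TGACGTCA was found in 1.85% of all 35116 windows, and in those of 2 members, MITF and FOXD3. The E-box CACGTG was in 7.26% of all windows and in that of 1 member, FOXD3. The form CATGTG was in 11.1% and in that of TFAP2B, the AP-1 site TGANTCA in 7.71% and in that of TFE3, and the AP-2 site GCCNNNGGC in 23.2% and in those of TFEB and USF1. A match is a description of letters only, and no binding was measured here.

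TFEB and TFE3, the lysosomal arm of the family, were not called. TFEB (chromosome 6, 41683978 to 41736259, minus strand) had 201, 173 and 196 normalized counts in EV and 149, 26.6 and 124 in HDAC8. All HDAC8 values were below all EV values, and HDAC8 2, which rests on 26 counts, was far below the other libraries of its group. The means were 190 ± 15.2 and 99.9 ± 64.6 (SD, n = 3 each), and the log2 fold change was -0.93 (SE 0.61, 95% interval -2.12 to 0.26, adjusted p by DESeq2 = 0.386). Without HDAC8 2 it was -0.47, and without HDAC8 1 it was -1.34. These were the ends of its range over the 14 alternatives, none of which called TFEB.

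TFE3 (chromosome X, 49028726 to 49043410, minus strand) was even across the libraries, at 1493, 1380 and 1452 normalized counts in EV and 1348, 1155 and 1553 in HDAC8. The groups overlapped, and the log2 fold change was -0.09 (SE 0.20, 95% interval -0.48 to 0.29, adjusted p by DESeq2 = 0.876). Without HDAC8 2 its sign turned, to 0.01. TFEC (chromosome 7, 115935148 to 116159896, minus strand), which is known mainly from macrophages and osteoclasts, had no read in the EV libraries and 16, 0 and 11 counts in the HDAC8 libraries. DESeq2 gave it no adjusted p, and edgeR and limma-voom gave adjusted p values of 0.376 and 0.34. The HDAC8 mean was 2.88 times a floor of 3 counts per EV library, but 1 HDAC8 library was at 0 too. TFEC was not called, so this ratio sets no lower limit on a change.

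**Figure D2:**
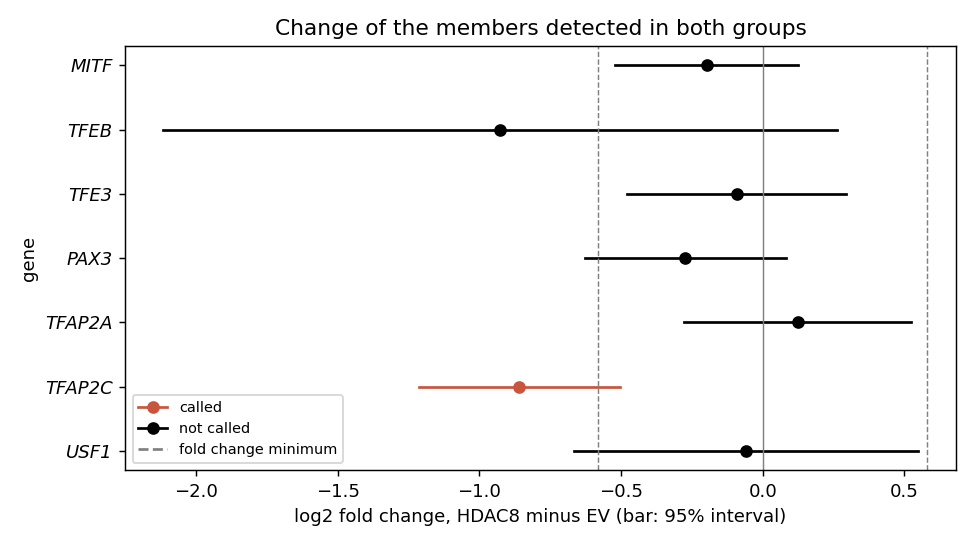
Log2 fold change (HDAC8 minus EV) of the 7 members with counts in both groups on the horizontal axis, with bars for the 95% interval from the DESeq2 standard error and dashed lines at the fold change minimum of 0.58. TFAP2C, in red, is the called one, at -0.86, the intervals of the other 6 reach across 0, and that of TFEB is the widest.

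Among the lineage factors, FOXD3 fell to no count in the HDAC8 libraries and PAX3 was not called. FOXD3 (ENSG00000187140, chromosome 1, 63322567 to 63325128, plus strand) is a forkhead factor of the neural crest that represses MITF in Schwann cell and melanoblast precursors. It had 33.6, 124 and 68.0 normalized counts in EV, from 32, 133 and 69 counts, and no count in any HDAC8 library. Each HDAC8 value was thus below each EV value, although EV itself spread widely. The EV mean of 75.2 ± 45.8 (SD, n = 3) was at least 25.4-fold higher than a floor of 3 counts per HDAC8 library, and FOXD3 was called (adjusted p by DESeq2 = 1.47e-06). It was called in all 13 alternatives that could test it, with adjusted p values of 9.18e-07 to 0.00232. The transcript was low even in EV, and the depth shows it as under the floor in HDAC8, not as absent.

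The 250 bases upstream of the FOXD3 start, at chr1:63322317-63322566 on the plus strand, are shown because FOXD3 was the member with the largest change and its window alone held the CACGTG core that MITF, TFE3 and USF1 recognise. Capitals mark TGACGTCA at -72 to -65 and CACGTG at -56 to -51, both counted from the start, and the matches do not overlap.
FOXD3: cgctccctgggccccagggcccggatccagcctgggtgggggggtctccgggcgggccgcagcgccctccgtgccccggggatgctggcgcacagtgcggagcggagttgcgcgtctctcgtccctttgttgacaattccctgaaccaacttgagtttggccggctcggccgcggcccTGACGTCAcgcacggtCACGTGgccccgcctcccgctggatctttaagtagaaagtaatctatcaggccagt
An annotated antisense gene, FOXD3-AS1, overlaps FOXD3 on the minus strand and runs through this window. It had 2 counts in all, both in EV 2, so its own reads were as good as missing here. Whether counting used the strand is not stated.

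PAX3 (chromosome 2, 222199887 to 222298998, minus strand), the paired-box factor that activates MITF with SOX10, had 1886, 1695 and 1804 normalized counts in EV and 1634, 1327 and 1495 in HDAC8. The highest HDAC8 value was just under the lowest EV value, so the groups did not overlap, yet the change was small. The means were 1795 ± 96.0 and 1486 ± 154 (SD, n = 3 each), the log2 fold change was -0.27 (SE 0.18, 95% interval -0.63 to 0.08) and the adjusted p by DESeq2 was 0.398. Over the 14 alternatives it lay between -0.35 and -0.19 and was never called.

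The AP-2 members split. TFAP2C fell, TFAP2A was not called and TFAP2B had no count. TFAP2C (ENSG00000087510, chromosome 20, 56629306 to 56639283, plus strand) had 2035, 1949 and 2114 normalized counts in EV and 1134, 1220 and 1008 in HDAC8. The libraries of each group lay close together and the gap between the groups was several times their spread. The means were 2033 ± 82.5 and 1121 ± 106 (SD, n = 3 each), 1.81-fold lower in HDAC8, with a log2 fold change of -0.86 (SE 0.18, 95% interval -1.21 to -0.50, adjusted p by DESeq2 = 5.9e-05). It was called in all 14 alternatives, with log2 fold changes of -0.95 to -0.79.

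TFAP2A (chromosome 6, 10393186 to 10419659, minus strand), which is mutated in branchio-oculo-facial syndrome and works beside MITF at pigment gene enhancers, had 1775, 1753 and 1568 normalized counts in EV and 1567, 1653 and 2334 in HDAC8. The groups overlapped and HDAC8 3 stood above all other libraries. Its log2 fold change was 0.12 (SE 0.20, 95% interval -0.28 to 0.52, adjusted p by DESeq2 = 0.825), and without HDAC8 3 it was -0.08. TFAP2A-AS1 overlaps it on the other strand and had 25.6 to 69.2 normalized counts, a small amount beside TFAP2A. TFAP2B (chromosome 6, 50818723 to 50847619, plus strand) was at 0 in all 6 libraries, which allows up to 3 counts, or 0.0714 to 0.0864 CPM depending on the library, for counting error only. Of the other AP-2 genes, TFAP2D was at 0 as well, and TFAP2E had means of 23.5 and 51.7 normalized counts (log2 fold change 1.14, SE 0.89, adjusted p by DESeq2 = 0.505).

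USF1 (chromosome 1, 161039251 to 161045977, minus strand), the E-box factor outside the family that takes part in the tanning response, was uneven within each group. It had 436, 603 and 657 normalized counts in EV and 682, 386 and 560 in HDAC8, and the groups overlapped fully. Its log2 fold change was -0.06 (SE 0.31, 95% interval -0.67 to 0.55, adjusted p by DESeq2 = 0.962), and without EV 3 or without HDAC8 2 it was above 0 (0.06 and 0.14). Its partner USF2 was not called either, with means of 2989 ± 490 and 2876 ± 80.7 (SD, n = 3 each) and a log2 fold change of -0.06 (SE 0.17, adjusted p by DESeq2 = 0.924).

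To set the members beside each other, counts were divided by the length of the annotated exons and scaled to the same total in every library, as TPM values are. On this per-length scale MITF was first in each of the 6 libraries, with 193 ± 24.4 in EV and 199 ± 40.5 in HDAC8 (SD, n = 3 each). The HDAC8 mean of MITF was thus slightly the higher one here and the lower one on normalized counts, and the same held for TFE3 and USF1. Without mitochondrial genes the per-length means were 280 in EV and 259 in HDAC8 for MITF, 41.0 and 40.7 for TFE3, and 28.7 and 29.1 for USF1, which stayed the higher one in HDAC8. Within the family MITF held 81.6% to 89.7% of the summed level, TFE3 10.2% to 17.1% and TFEB 0.147% to 1.18%.

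TFAP2C was next, at 55.7 ± 5.66 in EV and 36.6 ± 2.79 in HDAC8 on the per-length scale. TFE3 followed at 28.2 ± 3.61 in EV, and it was above USF1 (19.7 ± 2.44 in EV) within every library of both groups. Across the HDAC8 libraries the values of TFE3 and USF1 overlapped. USF1, PAX3 (18.6 ± 2.65) and TFAP2A (17.0 ± 2.46) did not differ beyond their spread in EV. In HDAC8 3 TFE3 (36.7) passed TFAP2C (33.4). The order below MITF depended on the length used. With the longest transcript in place of all exons, TFAP2C stayed second in EV (48.1), but its HDAC8 mean (30.5) was below those of TFAP2A (37.7), PAX3 (34.5) and TFE3 (32.1). TFEB (2.33 ± 0.37) and FOXD3 (2.35 ± 1.32) were level in EV and far below the members named so far, while TFEC and TFAP2B were at 0 in EV. The ratio of TFAP2C to TFAP2A on the per-length scale was 3.14, 3.05 and 3.69 in EV and 1.98, 2.02 and 1.18 in HDAC8, so it was lower in each HDAC8 library than in any EV library. Whether TFAP2C exceeded TFAP2A in HDAC8 depended on the length, as the means with the longest transcript show.

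The genes that MITF is known to bind were then read beside MITF. Of 12 pigment genes, 8 fell and 0 rose (DESeq2, with 0 higher also at an unadjusted p under 0.05 and 0 higher by edgeR and limma-voom), and the median log2 fold change was -1.61. That is 66.7% called lower against 5.44% of all genes. MLANA, TYR, DCT, PMEL and TYRP1 are also among the melanocyte markers above, so the counts are not independent. This list and those below were chosen with earlier results of these data known. MLANA, the melanosomal antigen MART-1, had 8618, 8323 and 9052 normalized counts in EV and 237, 300 and 372 in HDAC8, a 28.7-fold lower mean. TYR, the rate-limiting enzyme of melanin synthesis, had 16362, 17594 and 17721 in EV and 4865, 5984 and 6215 in HDAC8, 3.03-fold lower (log2 fold change -1.60, SE 0.14, adjusted p by DESeq2 = 3.6e-28). In both genes the 2 groups were far apart and their libraries close together. The pigment cell transporters SLC45A2 and SLC24A5 fell 3.43-fold and 3.06-fold, the cation channel gene TRPM1 3.69-fold and RAB27A, which ties melanosomes to actin, 2.38-fold.

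The TRPM1 call was lost without EV 2 (adjusted p = 0.0569), and those of MLANA, TYR, SLC45A2, SLC24A5 and RAB27A were kept in all 14 alternatives. TYRP1, a melanosomal enzyme usually abundant in pigment cells, was scarce, with 62.9, 32.7 and 21.7 normalized counts in EV and 0, 0 and 17.4 in HDAC8. It was not called (log2 fold change -2.76, SE 1.61, adjusted p by DESeq2 = 0.303). It was called without HDAC8 3 (adjusted p = 0.0032) and with the replicate block (0.0183).

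**Figure D3:**
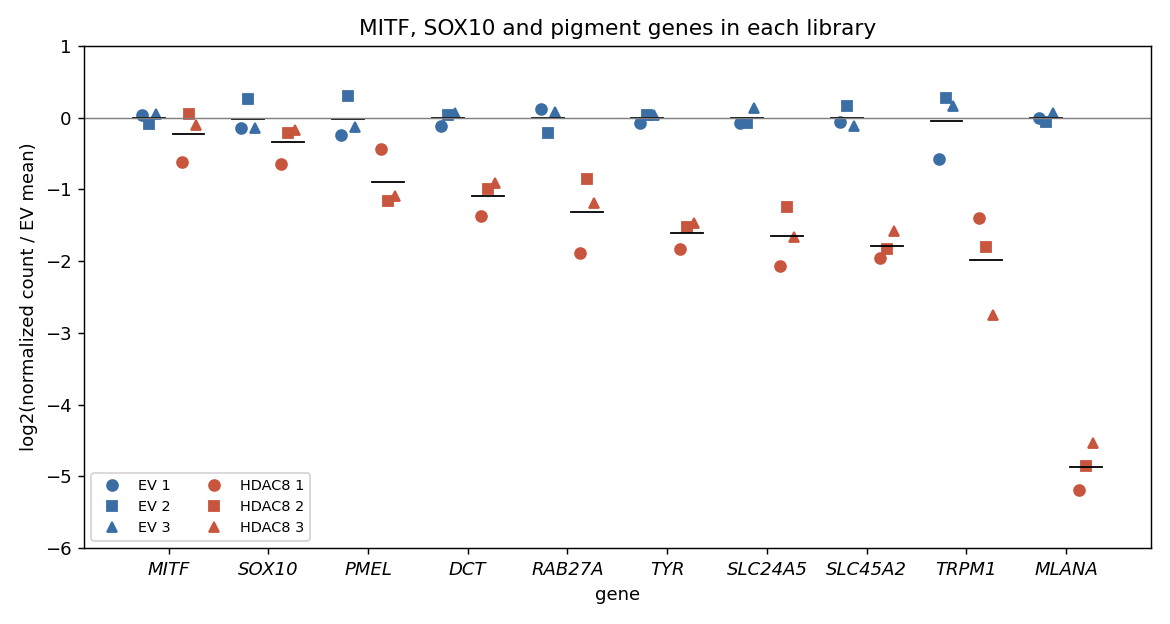
MITF, SOX10 and 8 pigment genes in each library, as log2 of the normalized count over the EV mean on the vertical axis, with EV in blue, HDAC8 in red and black bars at the mean of the plotted values. MITF and SOX10 stay within 1 unit of the EV mean in every library, while MLANA lies 4 to 6 units below it in the 3 HDAC8 libraries.

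Set against MITF within the same library, which removes the scaling between libraries, TYR stood at 0.918, 1.08 and 0.988 counts per MITF count in EV and at 0.430, 0.334 and 0.386 in HDAC8. MLANA stood at 0.484, 0.512 and 0.505 in EV and at 0.0209, 0.0167 and 0.0231 in HDAC8. For DCT, dopachrome tautomerase, the ratio was 0.977, 1.20 and 1.11 against 0.645, 0.531 and 0.624. None of these 3 ratios overlapped between the groups. For PMEL, the melanosome fibril protein, it was 9.53, 15.2 and 10.2 against 13.1, 5.0 and 5.86, and the groups overlapped through HDAC8 1. That library had the lowest MITF and the highest PMEL of the HDAC8 group. PMEL itself had 169800, 247772 and 182523 normalized counts in EV and 147944, 89540 and 94276 in HDAC8. It fell 1.81-fold (log2 fold change -0.86, SE 0.19, adjusted p by DESeq2 = 0.00017).

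The 250 bases upstream of the TYR start, at chr11:89177625-89177874 on the plus strand, are shown as the E-box setting of a gene that MITF is known to bind. Capitals mark CATGTG at -104 to -99 and at -12 to -7 from the start.
TYR: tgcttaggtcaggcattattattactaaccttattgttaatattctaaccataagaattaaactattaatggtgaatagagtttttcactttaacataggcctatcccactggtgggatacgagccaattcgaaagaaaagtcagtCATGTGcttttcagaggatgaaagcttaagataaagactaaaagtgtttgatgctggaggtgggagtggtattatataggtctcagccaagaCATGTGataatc
Of the 12 pigment genes 10 were matched to RefSeq windows, all but PMEL and SLC45A2. These genes had 16 windows, of which 9 (in 8 genes) held CATGTG and 0 held CACGTG, against 11.1% and 7.26% of all windows. MLANA, the pigment gene with the largest called change, had neither form in its window.

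Among 40 other known MITF targets 16 fell and 1 rose, with a median log2 fold change of -0.52. That is 40.0% called lower against 5.44% of all genes. A further 4 lower and 1 higher passed the p threshold below the fold change minimum. The largest falls were in BCL2A1 (2.78-fold), a BCL2 relative that blocks apoptosis, CAPN3 (2.70-fold), a calpain protease, and GPR137B (2.70-fold), a lysosomal membrane protein. PLXNC1, a semaphorin receptor, fell 2.20-fold, RAB38, which carries enzymes to melanosomes, 2.06-fold and RRAGD, a Rag GTPase, 2.04-fold. Each of these 6 calls was kept in all 14 alternatives. The target that rose was MET, the hepatocyte growth factor receptor, from 2964 ± 246 to 5221 ± 770 normalized counts (SD, n = 3 each), a log2 fold change of 0.82 (SE 0.16, adjusted p by DESeq2 = 1.8e-05). A second target passed as higher without EV 2, without HDAC8 2 or without HDAC8 3.

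Some abundant targets were not called. GPNMB, a melanosomal glycoprotein that MITF and TFE3 both bind, had 35592, 41173 and 40852 normalized counts in EV and 33717, 40165 and 38787 in HDAC8. The groups overlapped and the log2 fold change was -0.06 (SE 0.13, adjusted p by DESeq2 = 0.871).

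The lysosomal and autophagy genes of the CLEAR network, the best-known targets of TFEB and TFE3, were for the most part not called. Of 46 genes listed 44 were found by symbol, 1 rose, 4 fell and 39 were not called, which is 11.4% called against the background of 11%. The median log2 fold change was -0.16. WIPI1, an autophagosome protein, fell 2.50-fold from 2711 ± 125 to 1085 ± 127 normalized counts (SD, n = 3 each). The lysosomal proteases CTSA and CTSL fell 1.77-fold and 1.73-fold, and GABARAPL1, an ATG8 relative, 1.57-fold. The first 3 calls were kept in all 14 alternatives. That of GABARAPL1 was lost without EV 1, EV 2, EV 3 or HDAC8 3 and with the replicate block. Without HDAC8 1 the count of lower genes rose to 8.

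The gene of the CLEAR list that rose was FLCN, folliculin, which acts on RRAGC and RRAGD to keep TFEB and TFE3 out of the nucleus. It had 1873, 2137 and 1555 normalized counts in EV and 3739, 2328 and 2568 in HDAC8, with HDAC8 1 the highest. Its log2 fold change was 0.63 (SE 0.21, adjusted p by DESeq2 = 0.0272). This call was lost without EV 1 (adjusted p = 0.111), without EV 3 (0.212), without HDAC8 1 (0.121) and without HDAC8 3 (0.0522). It was also lost with limma-voom (0.0587), upper-quartile size factors (0.194) and the replicate block (0.0555).

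Of 25 genes of the nutrient-sensing machinery that controls the family, FLCN rose and 3 fell, which is 16.0% called against the background of 11%, with a median log2 fold change of -0.10. RRAGD, itself an MITF target, fell from 3691, 3094 and 3320 normalized counts in EV to 1413, 1666 and 1884 in HDAC8, and its call was kept in all 14 alternatives. LAMTOR3, a subunit of the Ragulator scaffold, fell 1.95-fold (log2 fold change -0.96, SE 0.27, adjusted p by DESeq2 = 0.0059), and MLST8, an mTOR complex subunit, 1.68-fold (log2 fold change -0.75, SE 0.23, adjusted p by DESeq2 = 0.0148). The LAMTOR3 call was lost without EV 1 or EV 3. The MLST8 call was lost without EV 2, EV 3 or HDAC8 3 and with the replicate block. Without EV 3 only 1 lower gene was left. The FLCN call was lost without EV 1, EV 3, HDAC8 1 or HDAC8 3 and under the other alternatives named above for it. FLCN and RRAGD belong to more than 1 of the lists, so the counts are not independent.

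**Figure D4:**
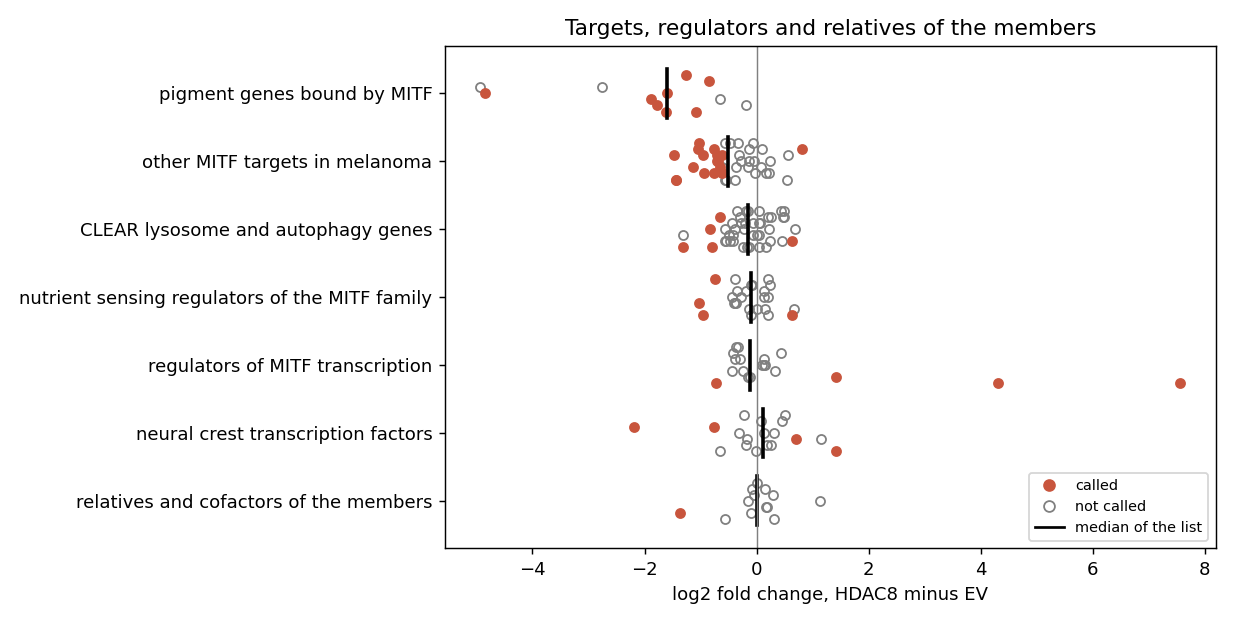
Log2 fold change (HDAC8 minus EV, horizontal axis) of each tested gene in 7 lists of targets, regulators and relatives of the members, with called genes in red, others as open circles and a black line at the median of each list. The medians run from -1.61 for pigment genes to 0.11 for neural crest factors, and the 2 points furthest to the right are GLI2 and SOX2.

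Of 19 genes listed as regulators of MITF transcription, 3 rose, 1 fell and 15 were not called. That is 21.1% called against 11% of all genes, and the median log2 fold change was -0.12. SOX10, which activates MITF together with PAX3, had 13659, 18068 and 13633 normalized counts in EV and 9686, 13104 and 13394 in HDAC8. The groups came close without overlapping, and SOX10 was not called (log2 fold change -0.33, SE 0.17, adjusted p by DESeq2 = 0.211). SOX9 rose 2.67-fold, from 3779, 4281 and 4193 to 8300, 13045 and 11324 normalized counts (log2 fold change 1.41, SE 0.17, adjusted p by DESeq2 = 1.7e-14). GLI2, the Hedgehog and TGF-beta effector known as a repressor of MITF, rose 19.7-fold, from 61.9, 30.8 and 17.7 to 585, 848 and 740 normalized counts (adjusted p by DESeq2 = 3.8e-22). ATF4, the integrated stress response factor, fell 1.66-fold (log2 fold change -0.73, SE 0.12, adjusted p by DESeq2 = 1.3e-07).

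SOX2 was at 0 in EV and had 5.99, 80.9 and 16.3 normalized counts in HDAC8, a mean at least 11.6-fold higher than the floor, and without HDAC8 2, its highest library, it received no adjusted p. The calls of SOX9, GLI2 and ATF4 were kept in all 14 alternatives. IRF4 was on this list of regulators, although it is described as working with MITF on TYR. It was not called, at 2783 ± 494 against 2560 ± 490 normalized counts (SD, n = 3 each, log2 fold change -0.12, adjusted p by DESeq2 = 0.823).

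Among 19 neural crest transcription factors, 18 were tested, 2 rose and 2 fell, with a median log2 fold change of 0.11. That is 22.2% called against 11% of all genes. SNAI2, the zinc finger factor required for melanoblasts, fell 4.56-fold, from 762, 680 and 851 normalized counts to 133, 259 and 111 (log2 fold change -2.19, SE 0.36, adjusted p by DESeq2 = 4.2e-08). ID3, an inhibitor of helix-loop-helix proteins, fell 1.69-fold. The 2 that rose were SOX9 and ETS1, an ETS-family factor, which rose 1.63-fold from 3924 ± 581 to 6409 ± 1374 normalized counts (SD, n = 3 each). SOX9 is also among the regulators of MITF transcription, so the counts of these lists are not independent. All 4 calls were kept in the 14 alternatives.

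The 16 relatives and cofactors of the members held little change. Of these, 13 were tested, 0 rose (0 at an unadjusted p under 0.05 and 0 by edgeR and limma-voom) and 1 fell. That is 7.69% called against 11% of all genes. The one that fell was CITED2, a coactivator of AP-2 factors, with 327, 228 and 318 normalized counts in EV and 53.0, 121 and 166 in HDAC8 (log2 fold change -1.37, SE 0.49, adjusted p by DESeq2 = 0.0423). The groups did not overlap, but the call was lost when any library other than HDAC8 3 was left out, with adjusted p values of 0.0648 to 0.214. With the replicate block the call was lost as well (adjusted p by DESeq2 = 0.0507).

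Genes lying beside the members were read as well. Within 50 kb of a member or overlapping it there were 45 annotated genes of the table, 20 of them with no count. Of the 18 with an adjusted p, 3 rose and 0 fell, and all 3 lie near TFE3 on chromosome X. Over all genes 5.57% were called higher and 5.44% lower, and 3 of 18 is a count too small to set apart from this background. CCDC120, 10162 bases from TFE3, rose 4.08-fold, from 110, 134 and 90.6 to 474, 341 and 552 normalized counts (log2 fold change 2.03, SE 0.38, adjusted p by DESeq2 = 3e-06), and this call was kept in all 14 alternatives. PRAF2 and WDR45 rose 1.80-fold and 1.57-fold (adjusted p by DESeq2 = 0.0328 and 0.0374). PRAF2 lost its call without EV 1, EV 3, HDAC8 2 or HDAC8 3 and with upper-quartile size factors. WDR45 lost its call when any 1 of the 6 libraries was left out, by edgeR (adjusted p = 0.0614) and by limma-voom (0.0874). Upper-quartile size factors and the replicate block removed the WDR45 call as well. TFE3 itself was not called.

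Antisense genes overlap 5 members. Besides FOXD3-AS1 and TFAP2A-AS1 these were RN7SL418P at MITF (0 to 35.9 normalized counts), AL035588.1 at TFEB (0 in every library) and CCDC140 at PAX3 (0 to 52.4). None of them was called.

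Last, genes whose pattern over the 6 libraries was most like that of MITF or of a called member were listed, by the Euclidean distance of centred log2(normalized count + 1) over 14451 genes with a mean of at least 50. Closest to MITF were PDZD8 (distance 0.0803), AFF4 (0.0825) and BTF3 (0.0863), which share its low value in HDAC8 1. Closest to TFAP2C were TTL (0.131), CNIH4 (0.135) and FARP2 (0.180), and TTL, for example, had 5547, 5487 and 5694 normalized counts in EV and 3171, 3386 and 3050 in HDAC8. Closest to FOXD3 were PXMP4 (1.37), TPTE (1.62) and SPON2 (1.79). PXMP4 and TPTE were likewise at 0 in the 3 HDAC8 libraries, and SPON2 fell from 865 to 1344 normalized counts in EV to 7.70 to 33.8 in HDAC8. A small distance describes 6 libraries and nothing more.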

How the data were processed

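RNA-seq was read from WM164 cells with an empty vector (EV, 3 libraries) or an HDAC8 expression vector (3 libraries), grouped by the labels. Reads were paired-end, and the authors used Trimmomatic for trimming, STAR for alignment against transcripts and RSEM for quantification. The deposited values are expected counts per gene, not scaled between libraries. Genome build, annotation and strand setting are not given in the sources used here, so overlapping and antisense genes are uncertain. The labels and the methods of the study name different RNA extraction kits.

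Expected counts were rounded, and genes with at least 10 counts in total were tested in DESeq2 1.42.0 (R 4.3.3) by its Wald test, two-sided and without covariates. Calls needed a Benjamini-Hochberg adjusted p under 0.05 and a log2 fold change of 0.58 or more in either direction. Of 26162 genes tested, 21021 received an adjusted p. Standard errors include the spread between libraries, and intervals are at the 95% level. A floor of 3 counts (2.57 to 3.27 normalized counts) stands in for 0 and covers counting error only, since without molecular identifiers reads are not separate molecules.

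The Ensembl identifiers of 56558 of 60504 genes were found in GENCODE release 44 (GRCh38), which gave positions and exon lengths. Promoter windows came from RefSeq. Named genes were all members, up to 6 called genes per list (largest changes, mean normalized count from 50 up), SOX10, TFAP2E, USF2, TYRP1, MLANA, IRF4, GPNMB and FLCN, called or antisense neighbours, and the 3 genes closest in pattern. MET, SOX2 and single marker genes were added after their values were seen. The members and lists were chosen with earlier results of these data known.

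Alternatives were edgeR 4.0.16 (quasi-likelihood), limma 3.58.1 (voom), total-count and upper-quartile size factors, other count filters, no mitochondrial genes, a replicate block, no minimum fold change and leaving out each library. No library was a copy of another of its group, since the chi-square per degree of freedom between replicates of a group was 27.6 to 168. It was highest for HDAC8 1, at 168 with HDAC8 2 and 112 with HDAC8 3. Between HDAC8 2 and HDAC8 3 it was 27.6, and within EV 42.0 to 51.6.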

Additional observations from a re-analysis of the deposited data

How the results depend on the processing

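Of the 124 alternative fold changes of members 5 changed sign, each of a member that was not called, and FOXD3 and TFAP2C were called in every fit that tested them. Without each library in turn, TFE3 ran from -0.20 to 0.0134, TFAP2A from -0.0768 to 0.23 and USF1 from -0.26 to 0.14 on the log2 scale, and USF1 was 0.0003 with total-count size factors. Demanding 10 counts in every library removes FOXD3, which leaves 1 lower member. Upper-quartile size factors gave 772 higher and 1291 lower genes, 37.4% higher, against 1170 and 1143, 50.6% higher, and leaving out each library gave 746 (without EV 3) to 1378 lower genes. Other MITF targets had 2 higher with total-count size factors and without the minimum fold change, and 1 to 2 without each library. CLEAR genes had 0 higher with limma-voom, upper-quartile size factors and the replicate block, 2 with the filter of 10 counts in every library and without the minimum fold change, and 0 to 2 without each library. Nutrient-sensing genes had 2 higher with edgeR, total-count size factors and the filter of 10 counts in every library, 0 with limma-voom, upper-quartile size factors and the replicate block, and 0 to 1 without each library. Lower CLEAR genes numbered 7 without the minimum fold change and 3 to 8 without each library, lower nutrient-sensing genes 1 to 3, and lower relatives and cofactors 0 to 1, with 0 under the replicate block. The causes were not tested. Of the other 178 list counts under alternatives none moved by over 1.5 times. Replicate numbers did not pair the libraries (correlations of deviations of -0.0273, -0.0663 and 0.0399), and the replicate block gave 1075 higher and 1078 lower genes with FOXD3 and TFAP2C again the called members. TFEC, TFEB and FOXD3 rest on few reads, and per-length levels moved beyond 1 SD in 21 of 40 alternatives.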
